A study of Mus musculus with 50 samples.

Results

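The genes described here are 10 transcripts by which astrocytes are commonly recognised, namely Slc1a2, Slc1a3, Glul, Gja1, Gjb6, Aqp4, Gfap, Aldh1l1, S100b and Agt. They were chosen by symbol alone, and all 10 were among the 24552 genes listed in both deposited count tables of this series. RNA was sequenced from nucleus accumbens (NAc) tissue of C57BL/6 mice that carry RiboTag (RT), an allele that puts an HA tag on ribosomes wherever Cre is active, in the genotypes RT; D1-Cre and RT; D2-Cre at 8-12 weeks of age. Cre came from the BAC transgenes D1-Cre (line FK150) and D2-Cre (line ER44), which are active in medium spiny neurons (MSNs) with D1 or D2 dopamine receptors. Precipitation with an HA antibody gave ribosome-bound RNA of D1- or D2-MSNs (D1-IPs and D2-IPs), and the rest of the same tissue lysate gave the inputs, which hold RNA of every cell type in the punch.

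Mice were controls without defeat (Con) or had met an aggressive CD1 mouse on up to 10 days and were then sorted by a social interaction test into resilient (Res) and susceptible (Sus). Each library was made from the pooled tissue of 2 mice. There were 4 Con, 4 Res and 5 Sus D1-IPs, 5 D2-IPs of each stress group, and 3 inputs for each line and stress group. A further 4 IPs carried the label Sirt1-KO, from male undefeated RT; Sirt1-floxed; D1-Cre mice whose age is not given and which had no inputs of their own here. Replicates were separate pools of mice.

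Astrocytes are glial cells that surround synapses and blood vessels. They clear glutamate from the synapse and turn it into glutamine, pass ions and metabolites to each other through gap junctions, and move water and potassium at their endfeet on vessels. In a RiboTag experiment driven by neuronal Cre their ribosomes carry no tag. Their transcripts can thus measure RNA of untagged cells in an IP, provided that the tagged cells do not make them, which was not tested.

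The members fall into groups by function. Slc1a2 (GLT-1) and Slc1a3 (GLAST) are the main glutamate transporters of astrocytes, and Glul is glutamine synthetase. Gja1 (connexin 43) and Gjb6 (connexin 30) form astrocytic gap junctions, and Aqp4 is the water channel of the endfeet. Gfap is the intermediate filament protein used to mark astrocytes and their reactive state, Aldh1l1 is a folate enzyme, S100b is a calcium-binding protein and Agt is angiotensinogen, the secreted precursor of the angiotensin peptides. In the GENCODE annotation of GRCm38, the members lie on 9 chromosomes, with Gja1 (chr10:56377330-56402513, plus strand) and S100b (chr10:76253853-76261159, plus strand) on the same chromosome. Agt lies at chr8:124556534-124569706 on the minus strand with no overlapping gene. Exons of Glul (chr1:153899944-153909723) overlap Teddm2 on the opposite strand and Mir8114 on the same strand, and since the strand setting of the counting is not known here, reads of these genes may be shared.

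Depth was 18384265 to 31009626 counts on genes in the 46 D1 and D2 libraries and 22174187 to 31785984 in the 4 libraries labelled Sirt1-KO. Levels are given as counts scaled to 1000000 (CPM) after TMM scaling, differences as log2 fold changes from edgeR, and a gene is called higher or lower where its Benjamini-Hochberg adjusted p over all genes tested was under 0.05. All 10 members passed the filter on low counts in every fit. The inputs held the defining markers of astrocytes, neurons, oligodendrocytes, microglia and endothelium, and the 10 members together took 4808 to 5755 CPM of each input. In bulk tissue, fewer astrocytes and less of a transcript per astrocyte cannot be told apart.

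In the inputs, no astrocyte gene was called higher or lower between stress groups. The glutamate transporters, glutamine synthetase and Aldh1l1 were held within narrow ranges, while Agt spanned more than 1 order of magnitude within each stress group except Con. Per kilobase of exon, which allows levels to be compared between genes, Glul stood first at 329.5 ± 28.7 CPM per kb (SD, n = 18), followed by Slc1a2 at 243.5 ± 14.2. Slc1a3 (59.2 ± 3.65), S100b (43.0 ± 4.93) and Gja1 (16.9 ± 1.33) came next, and each of these 5 genes was above the next in order in all 18 inputs. The rest of the order was less distinct. Aqp4 (14.1 ± 1.29 CPM per kb) was above Agt (10.4 ± 7.50) in 14 of 18 inputs, Agt was above Gfap (9.84 ± 1.98) in 7, Gfap was above Aldh1l1 (7.98 ± 0.527) in 15, and Aldh1l1 was above Gjb6 (7.82 ± 1.55) in 12.

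**Figure D1:**
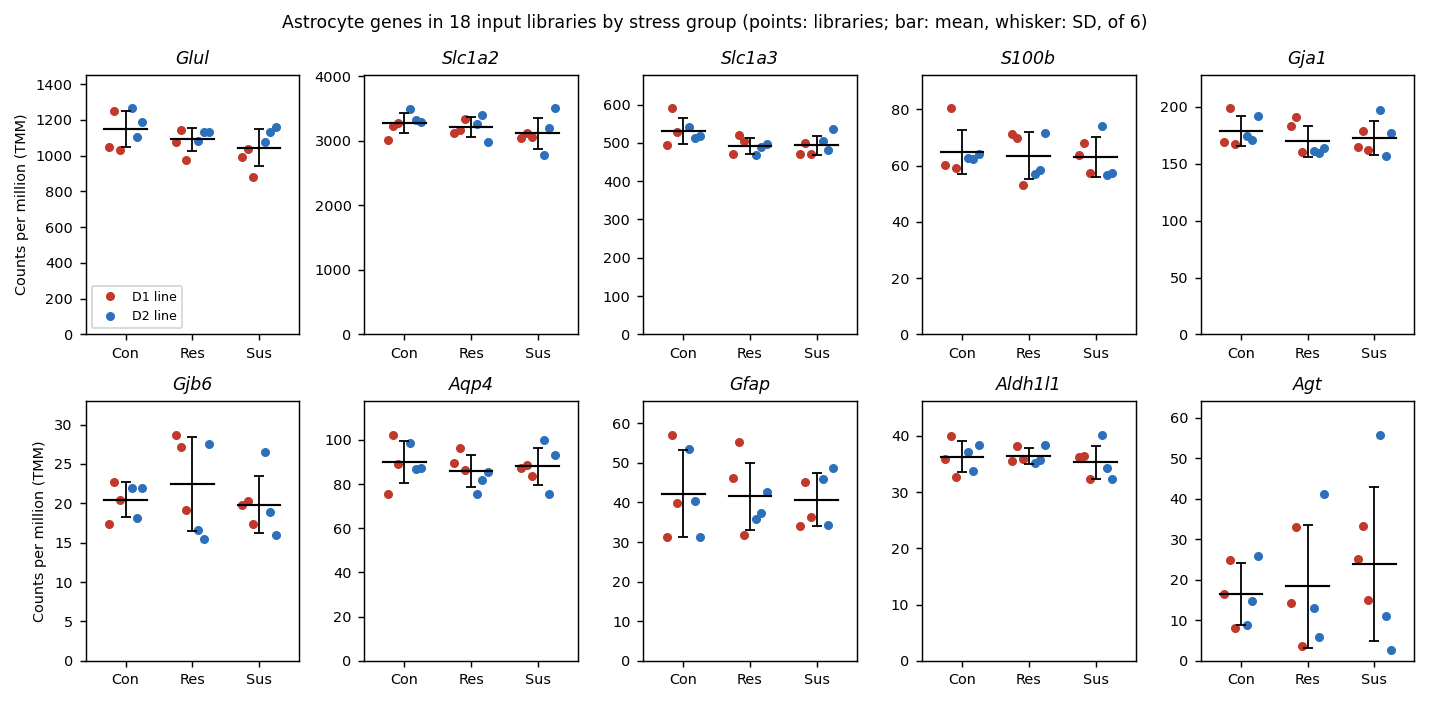
CPM of each astrocyte gene (vertical axes, linear from 0) in the 18 inputs by stress group, with D1-line and D2-line libraries in different colours, the horizontal bar at the mean and the whisker at 1 SD of 6 libraries. The 3 groups overlap in every panel, and Agt has the widest spread, from 2.67 to 55.8 CPM.

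Slc1a2 ranged from 3015 CPM through a median of 3284 to 3492 in the 6 Con inputs, from 2974 through 3215 to 3395 in Res and from 2778 through 3085 to 3501 in Sus. Slc1a3 ranged from 493 through 524 to 590 CPM in Con, from 467 through 493 to 521 in Res and from 470 through 491 to 535 in Sus. Glul ranged from 1030 through 1148 to 1264 CPM in Con, from 978 through 1107 to 1146 in Res and from 878 through 1056 to 1159 in Sus. The highest Slc1a3 and Glul values were in Con inputs, but the 3 groups overlapped for each of these genes. Sus against Con, Glul differed by -0.13 (95% interval -0.25 to -0.01, adjusted p = 0.979) and Slc1a3 by -0.10 (adjusted p = 0.979). Their unadjusted p were 0.0304 and 0.0423. Res against Con, Slc1a3 differed by -0.11 (95% interval -0.21 to -0.02, unadjusted p = 0.0241, adjusted p = 0.999).

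Of the 14820 genes tested in the inputs, 0% were called in Sus against Con, in Res against Con and in Sus against Res, and none of the 10 members was among them. At an unadjusted p under 0.05, the rule the study used for stress groups, 663 genes passed in Sus against Con, 478 in Res against Con and 821 in Sus against Res. That is 4.47%, 3.23% and 5.54% of genes, and 2, 1 and 0 members. Each of these members was lower, as were 1.82% of genes in Sus against Con and 1.75% in Res against Con. The median log2 fold change over the members was -0.04 in Sus against Con, where the median of all genes was -0.00041, and -0.03 in Res against Con, where it was 0.0039.

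Gja1 ranged from 167 through 173 to 199 CPM in Con, from 160 through 162 to 191 in Res and from 157 through 171 to 197 in Sus. Aqp4 ranged from 75.4 through 88.1 to 102.4 in Con, from 75.5 through 86.1 to 96.4 in Res and from 75.6 through 87.9 to 100.2 in Sus. Gfap ranged from 31.2 through 40.2 to 57.1 in Con, from 31.8 through 40.0 to 55.2 in Res and from 34.0 through 40.7 to 48.7 in Sus. The reactive-state marker Gfap therefore had nearly equal medians in the 3 groups, with a log2 difference of -0.04 for Sus against Con (95% interval -0.37 to 0.28). Aldh1l1 stayed between 32.4 and 40.2 CPM, Gjb6 between 15.5 and 28.7 and S100b between 53.1 and 80.3 over all 18 inputs.

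Agt ranged from 8.11 through 15.6 to 25.7 CPM in the Con inputs, from 3.56 through 13.6 to 41.1 in Res and from 2.67 through 20.1 to 55.8 in Sus. The lowest and highest inputs both belonged to the Sus group, and the 3 groups overlapped. Its coefficient of variation was 72.4% over the 18 inputs, against 20.1% for Gfap, 19.9% for Gjb6 and 5.83% for Slc1a2. The log2 difference of Sus against Con was 0.53 (95% interval -0.66 to 1.73, adjusted p = 0.979), an interval that takes in a fall as well as a rise.

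The lines were alike in their inputs as far as the test shows. Between the D1 and D2 lines, 3 genes were called (0.0202%), none of them a member. Glul had the smallest p of the members (log2 difference D1 minus D2 of -0.12, 95% interval -0.22 to -0.03, adjusted p = 0.885). No member's stress difference was called to depend on the line (0% of genes). Within the 3 against 3 inputs of the D1 line, where 2 of 15063 genes were called in Sus against Con (0.0133%), the log2 difference was -0.19 for Glul and -0.15 for Slc1a3, with unadjusted p of 0.0324 and 0.0303 from edgeR, which 1.35% of genes passed in that direction. Neither was called.

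Other lists of genes were tested in the inputs as well. None of 46 further astrocyte genes was called in any stress comparison. Of 12 genes known to rise in reactive astrocytes, 8 were tested and none was called. Their log2 differences were positive in 7 of 8 for Sus against Con (median 0.13) and in 8 of 8 for Res against Con (median 0.18), with a smallest unadjusted p of 0.0688 and 0.0698 by edgeR. The share of positive values over all genes was not counted. These genes share library, depth and the make-up of the punch, so their signs are not independent of each other. Of 6 ependymal genes tested, 3 were lower at an unadjusted p under 0.05 in Res against Con, as were 1.75% of all genes. Their log2 differences went down to -1.47, and none was called.

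Over the inputs, most members moved up and down together. Of the 45 pairs of members, 39 had a positive Pearson r of log2 CPM over the 18 inputs (median r = 0.458). By a permutation test adjusted over the 45 pairs, 20 passed for Pearson's r, 16 for Spearman's rho and 29 after the mean of each line and stress group was subtracted. These counts take in pairs of either sign. Slc1a2 had the fewest positive pairs, 4 of 9 (median r = -0.187). After the group means were subtracted, its 4 pairs that passed were all negative, with Agt (-0.858), Gjb6 (-0.690), Aldh1l1 (-0.571) and S100b (-0.560). The strongest positive pair was Aqp4 and Gfap (r = 0.795, rho = 0.792, adjusted p = 0.00225 and 0.00255), with r = 0.71 without the 2 inputs farthest from the median of Aqp4. These points share library, depth and the make-up of the punch, and the members are all used as markers of astrocytes.

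The strongest negative pair was Agt and Slc1a2 (r = -0.776, rho = -0.779, permutation adjusted p = 0.00225 and 0.0027), with r = -0.649 without the 2 inputs farthest from the median of Slc1a2 and -0.858 within groups. Agt went up and down with S100b (r = 0.758, rho = 0.769, adjusted p = 0.00225 and 0.0027), Aldh1l1 (r = 0.663, rho = 0.711, adjusted p = 0.0143 and 0.00658) and Gjb6 (r = 0.629, rho = 0.581, adjusted p = 0.017 and 0.0382). Without the 2 inputs farthest from the median of Agt, r with S100b was 0.71. Without those farthest from the median of the other gene, it was 0.578 with Aldh1l1 and 0.665 with Gjb6.

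Among the 5 genes whose levels over the inputs were most like the mean of the 10 members were Olig1 (r = 0.875), Daam2 (r = 0.869), Gstm1 (r = 0.846) and Kif1c (r = 0.846), out of 14810 genes. Olig1 is a transcription factor of the oligodendrocyte lineage, and none of these 4 was in the list of further astrocyte genes. The genes most like Agt were others, namely Sparc (r = 0.984), Itih3 (r = 0.982), Gabrq (r = 0.981), Dgkk (r = 0.981) and Irs4 (r = 0.979), named here after their values were seen. Gabrq, a GABA-A receptor subunit, ranged from 1.12 to 5.18 in log2 CPM and Irs4, an insulin receptor substrate, from 0.02 to 5.35, spreads of more than 4 on the log2 scale. Sparc, a secreted matrix protein, ranged from 7.09 to 8.97. Of these 5, Itih3 alone was in the list of further astrocyte genes. These likenesses are descriptions over 18 libraries and carry no test.

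In the IPs, every astrocyte gene was far below its level in the inputs. All 10 members were called lower in D1-IPs against D1-inputs, where 42.7% of 15404 genes were called lower, and all 10 in D2-IPs against D2-inputs, where 44.9% were. The median over the members was -3.01 in D1 and -3.49 in D2 on the log2 scale, while the medians of all genes were -0.04 and -0.08. IP and input values overlapped for Agt in the D1 line and for no other member in either line. Genes without such overlap were not counted over all genes. Reads that the counting gave to no gene made up 18.02% to 28.3% of the counts in IPs and 35.9% to 40.0% in inputs, and their part in these differences was not tested. Within each stress group all 10 members were again lower in the IPs, where 36.1% (Con), 35.7% (Res) and 35.8% (Sus) of genes were lower in D1 and 37.8%, 37.2% and 36.6% in D2.

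**Figure D2:**
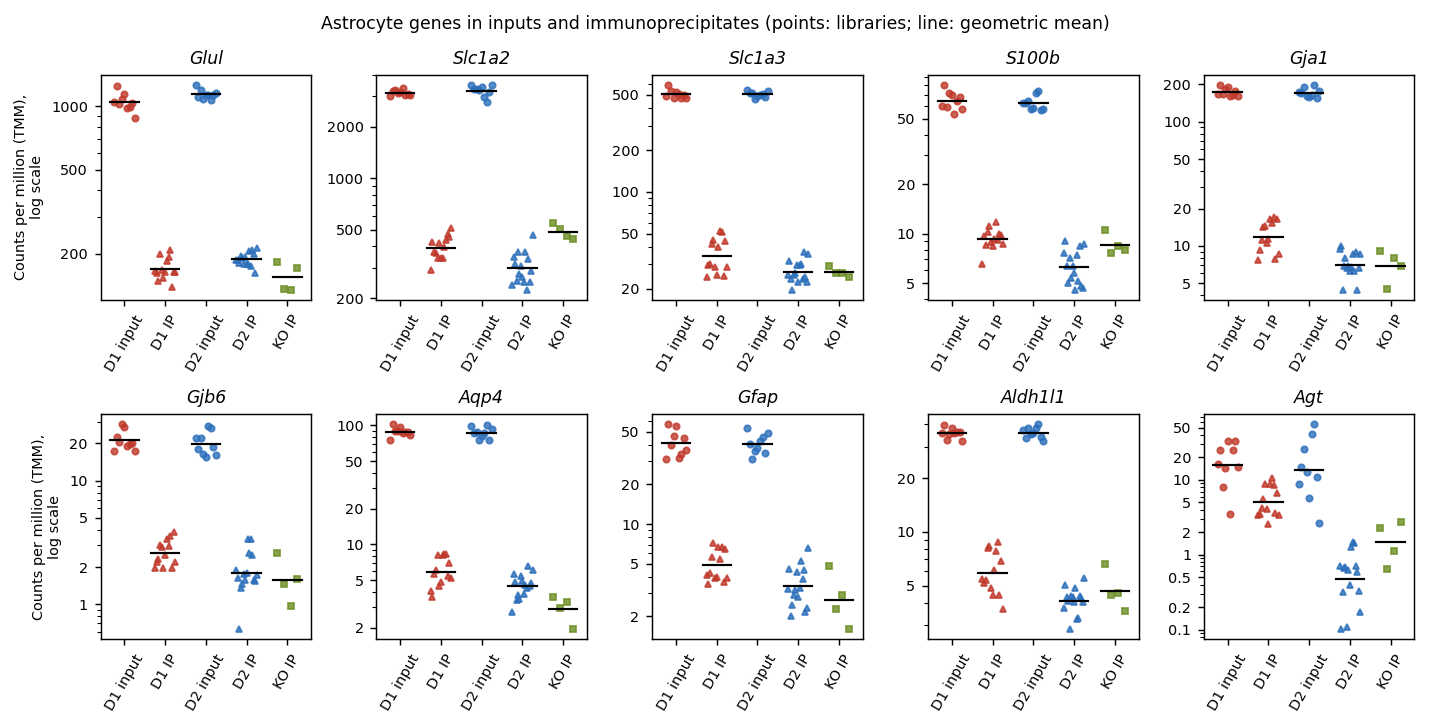
CPM on log axes for each astrocyte gene in D1-inputs (9), D1-IPs (13), D2-inputs (9), D2-IPs (15) and IPs labelled Sirt1-KO (4), each point a library and each line a geometric mean. IPs lie below inputs in every panel, with an overlap only for Agt in the D1 line, where the highest IP was at 10.6 CPM and the lowest input at 3.56.

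Slc1a2 went from 3015 to 3345 CPM in D1-inputs to 291 to 511 in D1-IPs, and from 2778 to 3501 in D2-inputs to 224 to 469 in D2-IPs. The log2 difference was -3.01 in D1 and -3.42 in D2. Slc1a3, with 467 to 590 CPM over all inputs, was at 24.3 to 52.0 in D1-IPs and 19.7 to 36.7 in D2-IPs, a log2 difference of -3.84 and -4.23. The depletion was thus greater for GLAST than for GLT-1 in either line, on this scale.

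Glul was the least depleted member in D2 and, after Agt and Aldh1l1, the third least in D1. It was at 139 through a median of 164 to 209 CPM in D1-IPs and 163 through 187 to 214 in D2-IPs, against 878 to 1264 over all inputs. The log2 difference was -2.62 in D1 (SE 0.0574, adjusted p = 6.26e-33) and -2.59 in D2. In the 9 pools of each line with both an IP and an input, the IP level was 16.1% of the input in D1 and 16.5% in D2.

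Gja1 and Aqp4 were among the most depleted. Gja1 was at 7.71 through 11.3 to 17.0 CPM in D1-IPs and 4.43 through 6.83 to 10.1 in D2-IPs, and Aqp4 at 3.63 through 5.66 to 8.35 and 2.73 through 4.54 to 6.59. The log2 differences were -3.84 and -4.58 for Gja1 and -3.89 and -4.26 for Aqp4. In the matched pools, IPs held 6.68% (D1) and 4.13% (D2) of the input level of Gja1, and 6.66% and 5.51% of that of Aqp4. The second connexin, Gjb6, kept 11.9% and 9.28%.

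Gfap was at 3.52 through 4.26 to 7.19 CPM in D1-IPs and 2.01 through 3.23 to 6.65 in D2-IPs, which in the matched pools was 11.8% and 8.54% of input. Aldh1l1 kept 16.9% and 11.7%, and S100b 14.5% and 10.6%. Members therefore differed severalfold in the share left in the IPs, from 4.13% for Gja1 to 16.5% for Glul among the D2 values other than Agt.

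**Figure D3:**
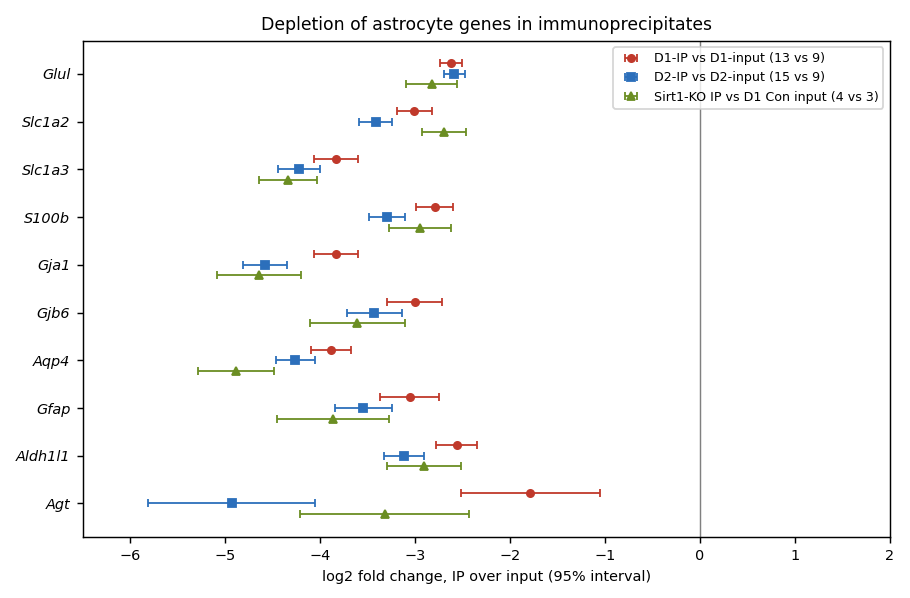
Log2 fold change of IP over input for each astrocyte gene with its 95% interval, for D1-IPs (13 against 9 libraries), D2-IPs (15 against 9) and IPs labelled Sirt1-KO against the D1 Con inputs (4 against 3). All values are below 0, and Agt shows the widest separation between D1 (-1.79) and D2 (-4.93).

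Agt was the member whose depletion differed most between the lines. It ranged from 2.54 through 4.19 to 10.6 CPM in the 13 D1-IPs and from 0.102 through 0.621 to 1.49 in the 15 D2-IPs, so the lowest D1-IP lay above the highest D2-IP. In inputs of these lines it ranged from 3.56 through 16.5 to 33.3 and from 2.67 through 12.9 to 55.8 CPM. The values rest on 72 to 262 counts in D1-IPs but on 2 to 43 counts in D2-IPs. The log2 difference of IP against input was -1.79 in D1 (SE 0.364, adjusted p = 2.6e-05) and -4.93 in D2 (SE 0.435, adjusted p = 1.5e-13). The difference between these was 3.15 (95% interval 1.95 to 4.35, adjusted p = 9.52e-05).

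Pool by pool, the Agt level in the IP was 20.3%, 14.1% and 51.7% of that in its own input in the Con pools of the D1 line, 61.3%, 12.5% and 71.3% in the Res pools and 42.1%, 26.0% and 24.3% in the Sus pools. In the D2 line it was 8.03%, 0.69% and 1.22% in Con, 0.83%, 10.7% and 0.95% in Res and 2.57%, 6.40% and 22.3% in Sus. The mean was 36.0% ± 21.5 in D1 and 5.97% ± 7.13 in D2 (SD, n = 9 pools each). The lines overlapped in these shares, since 1 D2 pool, at 22.3%, was above the 3 lowest D1 pools. That pool had the lowest Agt of all inputs. Over the pools of a line, the level of a member in the IP was not shown to follow its level in the input. In 20 such relations the smallest exact permutation p was 0.0274 (Aldh1l1 in D2, adjusted p = 0.548).

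**Figure D4:**
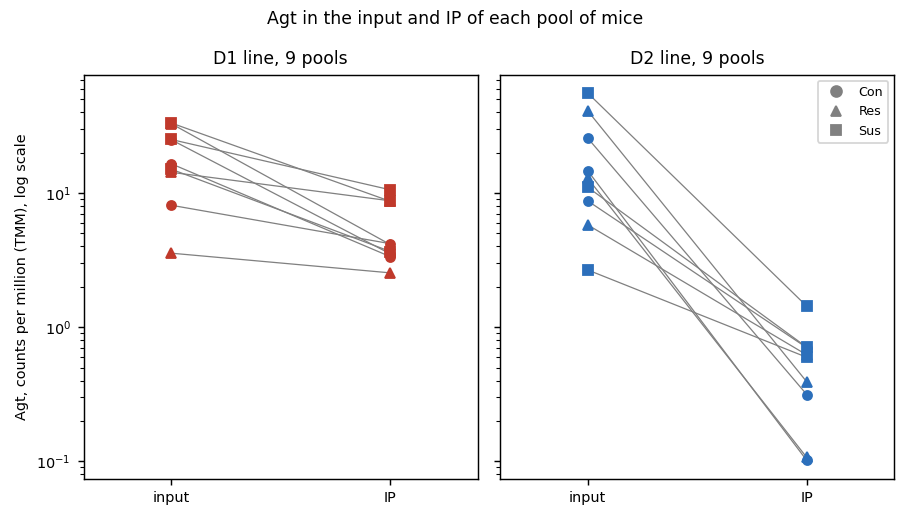
Agt in CPM on a log axis in input and IP for 9 pools from each line, joined pool by pool, with symbols for the stress group. Every pool is lower in the IP than in the input, and the lines fall more steeply in the D2 line, where the IPs lie between 0.102 and 1.43 CPM.

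The sequence just before the start of Agt is shown because Agt departs from the other members, with that of Slc1a3 for comparison because these 2 were the only ones of 9 member promoters searched that held both TATAAA and TTCNNNGAA. The letters are 250 bases upstream of the RefSeq start on GRCm38.p6, 5′ to 3′ on the strand of the gene, at chr8:124569707-124569956 (minus) and chr15:8710808-8711057 (minus). Capitals mark matches to the motifs searched, on either strand.
Agt: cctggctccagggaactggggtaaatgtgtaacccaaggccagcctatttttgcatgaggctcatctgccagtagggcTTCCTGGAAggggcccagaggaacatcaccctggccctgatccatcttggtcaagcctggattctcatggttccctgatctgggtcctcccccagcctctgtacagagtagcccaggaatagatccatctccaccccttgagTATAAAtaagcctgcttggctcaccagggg
Slc1a3: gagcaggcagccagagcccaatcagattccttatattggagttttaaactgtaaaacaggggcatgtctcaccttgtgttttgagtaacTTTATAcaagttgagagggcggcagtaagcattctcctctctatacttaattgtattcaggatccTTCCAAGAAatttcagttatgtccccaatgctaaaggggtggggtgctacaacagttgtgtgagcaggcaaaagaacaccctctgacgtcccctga
In Agt the TATAAA ends 25 bases before the start. Over 32851 promoters of that length, 12.4% held TATAAA (the TATA box) and 7.02% TTCNNNGAA (the letters of STAT sites). Among the 9 member promoters, S100b alone held TTGGCA (a core of NFI sites, 12.3% of all), Gja1 alone TGANTCA (an AP-1 site, 6.75%) and none ACAATG (the SOX core, 10.7%). Such matches are descriptions of letters, not of binding.

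A further 4 members were also less depleted in D1 than in D2. The difference of the log2 fold changes was 0.74 for Gja1 (adjusted p = 0.000521), 0.55 for Aldh1l1 (0.00513), 0.50 for S100b (0.00539) and 0.41 for Slc1a2 (0.0121). With Agt, 5 members were called, all in this direction, where 13.7% of genes were. The differences for Aqp4 (0.37, adjusted p = 0.0548), Slc1a3 (0.39, 0.0523), Gfap (0.48, 0.0986) and Gjb6 (0.43, 0.13) were not called. That of Glul was -0.03 (95% interval -0.19 to 0.13, adjusted p = 0.823), an interval that stops short of the value for Gja1. Of the 46 further astrocyte genes, 21 were less depleted in D1, 4 were more depleted and 21 were not called. The share of all genes called more depleted in D1 is not reported here, so the 4 cannot be set against it.

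Set against each other directly, D1-IPs held more of 9 members and less of Glul than D2-IPs, and all 10 were called, where 19.6% of 14224 genes were called higher and 21.3% lower. Agt differed by 3.09 on the log2 scale (95% interval 2.50 to 3.68, adjusted p = 9.82e-10), an 8.52-fold higher level. The other 8 genes that were higher ranged from 0.35 (Slc1a2) to 0.75 (Gja1), and Glul was at -0.17 (adjusted p = 0.0119). Among the members only Agt had values that did not overlap between the lines, and such separation was not counted over all genes. The median over members was 0.49 and that of all genes -0.02. The D1-IPs fall into a lower and an upper set on the mean of these same genes, as described below. Slc1a3 lay at 24 to 30 CPM in the lower 7, within the D2-IP range of 19.7 to 36.7, and at 40 to 52 in the upper 6. Glul had a median of 162 CPM in the lower 7 and 189 in the upper 6, beside 163 to 214 in D2-IPs. The difference between the lines was not tested within either set. Within the Con libraries 1 member was called higher (7.73% of genes were), within Res 3 (9.64%) and within Sus 4 (9.48%). Agt was among them each time, with 3.04, 2.95 and 3.28. In these smaller comparisons Gja1 and S100b were called in Res and Sus, and Slc1a2 in Sus.

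Markers of other cells were also called between the D1- and D2-IPs, where 19.6% of all genes were higher and 21.3% lower. Of the 8 oligodendrocyte genes 6 were higher in D1-IPs and 2 were not called, and of the 6 oligodendrocyte precursor genes 2 were higher and 4 not called. Of the 8 microglia genes 4 were lower and 4 not called, as of the 8 endothelial genes. Of the 8 neuron genes 6 were higher and 2 not called. The oligodendrocyte genes together took 524 to 839 CPM in D1-IPs and 423 to 685 in D2-IPs, against 3727 to 5852 in inputs, and the 10 astrocyte genes 513 to 760 and 451 to 757. The part of these other cells in the differences of the astrocyte genes was not tested.

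Between stress groups, no member was called in the IPs of either line. Of all genes, 0.00703% were called in D1 Res against Con and 0% in the other 5 comparisons. The smallest adjusted p of the members was 0.846, and the groups overlapped for all 10 members in all 6 comparisons. At an unadjusted p under 0.05 in edgeR, which 5.34% of genes passed in D1 Sus against Con, Aqp4 was at 0.49 (95% interval 0.04 to 0.93). In D1 Sus against Res, where 4.23% passed, Slc1a2 was at 0.33. In D2, Gjb6 was at 0.68 in Res against Con, where 3.02% passed, and at 0.64 in Sus against Con, where 3.68% did. Their unadjusted p were 0.0334, 0.0476, 0.021 and 0.0293 by edgeR. No member passed in D1 Res against Con (2.11% of genes) or D2 Sus against Res (1.66%). Agt was at 0.66 in D1 Sus against Con (95% interval -0.21 to 1.54).

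Aqp4 was at 4.07, 3.63, 5.66 and 6.15 CPM in D1 Con IPs, at 8.17, 4.45, 4.84 and 8.16 in D1 Res IPs and at 8.35, 8.25, 5.42, 6.99 and 5.20 in D1 Sus IPs. Agt was at 3.35, 3.52, 4.19 and 5.63 CPM in Con, at 8.75, 4.13, 2.54 and 8.80 in Res and at 10.6, 8.67, 3.66, 6.79 and 3.37 in Sus. High and low libraries were thus found in both defeated groups, and for the same pools in both genes.

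This reached across most members. On the mean of the 10 z-scored log2 CPM, the 13 D1-IPs fell into 7 libraries between -1.16 and -0.46 and 6 between 0.55 and 1.13, with no library between. The gap took 44.4% of the whole range, while the widest gap among the 15 D2-IPs took 18.2%. The upper libraries were 1 of 4 Con, 2 of 4 Res and 3 of 5 Sus. Their summed oligodendrocyte precursor genes were at 46.9 to 55.9 CPM and those of the other 7 libraries at 27.8 to 35.7. For the oligodendrocyte genes these ranges were 691 to 839 and 524 to 648, for microglia genes 15.6 to 18.6 and 11.3 to 13.6, and for neuron genes 8513 to 8933 and 8387 to 9525. The endothelial genes overlapped, at 8.31 to 12.3 and 7.21 to 10.0, as did the ependymal, reactive-state and S100 genes. Among the members, Slc1a2 did not follow, with a median of 381 CPM in the upper libraries and 419 in the others. Within the 7 libraries none of the 15 relations between that mean and another list passed an exact permutation test after adjustment, nor did any of the 45 pairs of members, and the same held within the 6. With so few libraries these tests have little reach. The smallest two-sided exact p over 6 libraries is 0.00278, which for a single one of 45 pairs is 0.125 after adjustment, so no single pair could pass there. For a single one of 15 lists within the 6 it is 0.0417. Within the 7 it is 0.0179 for a pair and 0.00595 for a list, so these could have passed and none did. A relation within the 6 or the 7 was neither shown nor shown to be absent. In the 6, r was positive for 13 of the 15 lists, and in the 7 for 10. Since the D1-IPs form separate clusters, no r over all 13 is given. The study sequenced its libraries in several sets, and which library was in which set is not given in the sources used here, so the set and the gap cannot be told apart.

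**Figure D5:**
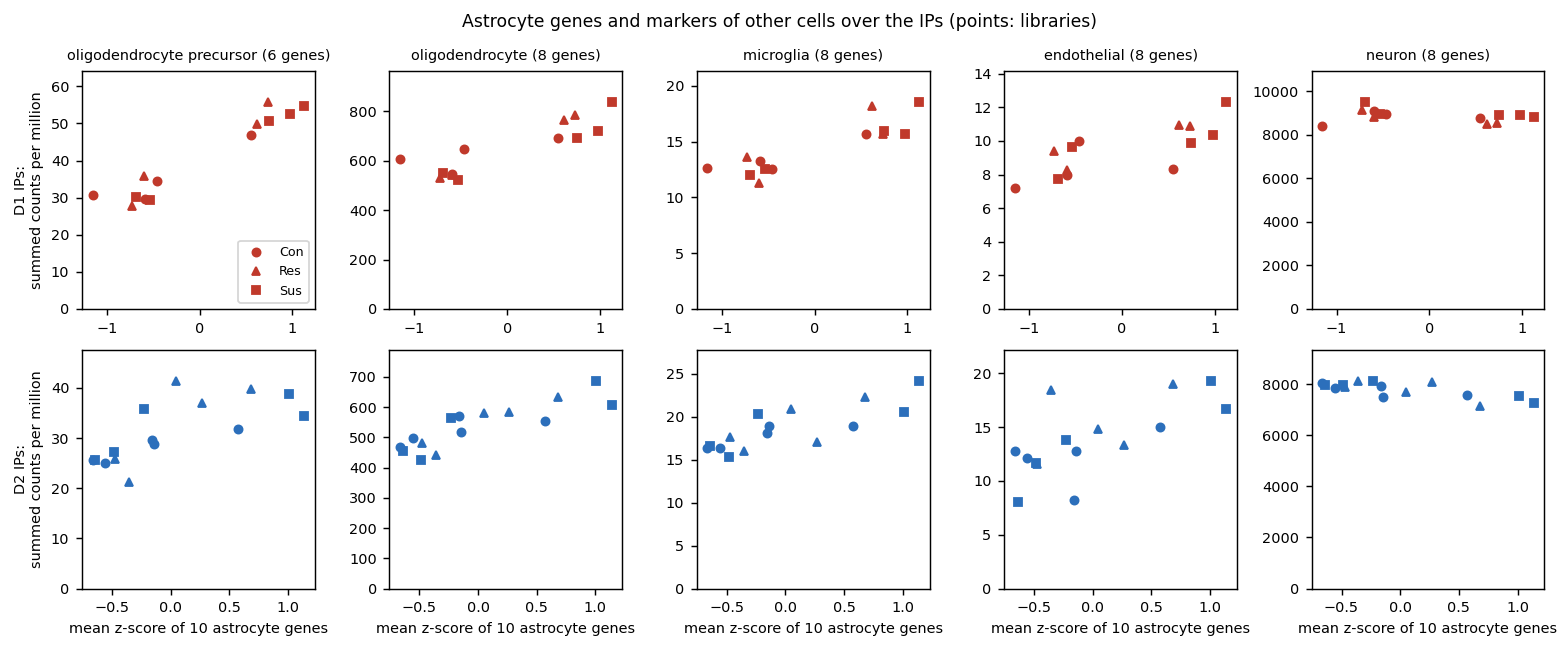
Summed CPM of 5 lists of marker genes (vertical axes, linear from 0) against the mean z-score of the 10 astrocyte genes (horizontal axes) in the 13 D1-IPs (upper row) and 15 D2-IPs (lower row), with symbols for the stress group. The D1-IPs form 7 and 6 libraries with an empty range between -0.46 and 0.55, while the D2-IPs spread from -0.67 to 1.14.

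In the 15 D2-IPs the mean of the members rose with the oligodendrocyte, oligodendrocyte precursor, microglia and endothelial genes and fell with the neuron genes. Pearson's r was 0.840 with the oligodendrocyte genes (rho = 0.857), 0.803 with microglia (rho = 0.811), 0.721 with oligodendrocyte precursors (rho = 0.782) and 0.646 with endothelium (rho = 0.707). It was -0.756 with the neuron genes (rho = -0.629). By permutation tests adjusted over 15 lists, p for r was 0.0012, 0.00322, 0.00697, 0.0165 and 0.00597, and for rho 0.0024, 0.00255, 0.0036, 0.00767 and 0.0204. Without the 2 libraries farthest from the median, r was 0.797, 0.702, 0.737, 0.538 and -0.668. After the means of the stress groups were subtracted it was 0.845, 0.791, 0.704, 0.659 and -0.774. The MSN genes (r = 0.025, rho = 0.111), the ependymal genes (r = 0.034, rho = 0.179) and the reactive-state genes (r = 0.098, rho = 0.139) did not pass. Lists of other kinds passed for r and rho as well. Further gap junction genes (r = 0.728), further astrocyte genes (0.704) and endfoot and ion channel genes (0.609) rose with the mean. Genes of the renin-angiotensin system (-0.750) and of the glutamate-glutamine cycle (-0.614) fell with it. The S100 genes (0.552) passed for r alone and the folate enzymes (0.190) for neither. Among the pairs of members themselves, 35 of 45 were positive over the D2-IPs (median r = 0.400), and 5 passed for Pearson's r and 1 for Spearman's rho. As a description without a test, the single genes most like the mean of the members were Sfswap (r = 0.960), Zfp638 (0.946), Kank2 (0.933), Smpd4 (0.923) and Mir124a-1hg (0.923). None of them was in a list of genes used here.

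The 4 libraries labelled Sirt1-KO were compared with the 4 D1 Con IPs. Counts on the whole Sirt1 gene did not fall under that label, with 15.9, 17.0, 13.9 and 10.7 CPM against 13.8, 17.4, 15.6 and 15.1 (log2 difference -0.10, adjusted p = 0.768). Counts of a whole gene include exons outside the deleted part and so check nothing about the deletion. They share a deposited table with the D1 Con IPs, and whether both groups were prepared together is not given in the sources used here, so genotype and preparation cannot be told apart.

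No astrocyte gene was called between the libraries labelled Sirt1-KO and the D1 Con IPs, where 226 genes were (1.66%). The members with the smallest p were Slc1a2 and Agt, in opposite directions. Slc1a2 was at 552, 503, 459 and 443 CPM under the Sirt1-KO label and at 290, 424, 369 and 364 in D1 Con IPs. Agt was at 2.28, 0.644, 1.14 and 2.77 CPM and at 3.35, 3.49, 4.18 and 5.61. Neither gene's values overlapped between the groups, and such separation was not counted over all genes. The log2 difference was 0.44 for Slc1a2 (95% interval 0.21 to 0.67, adjusted p = 0.0609) and -1.31 for Agt (95% interval -2.11 to -0.52, adjusted p = 0.0895), both by edgeR.

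Both were called with DESeq2, with adjusted p of 0.00345 for Slc1a2 and 0.00963 for Agt, and with Aqp4 (0.0492). DESeq2 called 741 genes in all, against 226 with edgeR. Without the library labelled Sirt1-KO 5, edgeR called 1020 genes, among them Slc1a2 (0.48, adjusted p = 0.0216) and Agt (-1.63, adjusted p = 0.0187). Without D1 Con IP 2, Slc1a2 was called (0.52, adjusted p = 0.0387). Over all omissions of 1 library, the adjusted p of Slc1a2 lay between 0.0216 and 0.161 and that of Agt between 0.0187 and 0.253.

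Aqp4 was at 3.64, 2.95, 3.31 and 1.94 CPM under the Sirt1-KO label and at 4.06, 3.61, 5.64 and 6.12 in D1 Con IPs, with an overlap of 1 library. Its log2 difference was -0.70 (adjusted p = 0.134), and that of Gja1 was -0.57 (adjusted p = 0.221). The values of the other members ran from -0.58 for Gfap to -0.01 for S100b. Over the members the median was -0.41, against 0.000092 over all genes, with 9 of 10 values below 0 and Slc1a2 above. The 46 further astrocyte genes had a median of -0.29, with 38 of 46 below 0. Of these, Itih3 alone was called (-1.25, adjusted p = 0.0485). The 8 oligodendrocyte genes (median -0.36) and the 10 MSN genes (median -0.35) were below 0 throughout, with 0 and 1 called.

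Against the 3 D1 Con inputs, all 10 members were called lower in the libraries labelled Sirt1-KO, where 35.7% of 14720 genes were. Values of these groups overlapped for no member, and this was not counted over all genes. The log2 differences ran from -2.70 (Slc1a2) to -4.89 (Aqp4), with -3.32 for Agt. In the same fit all 10 members were lower in the D1 Con IPs (35.4% of genes were), with -4.20 for Aqp4. These comparisons share their inputs, and those inputs came from RT; D1-Cre mice.

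Among the lists of genes that work with the members, depletion in the IPs was not uniform. Their counts stand beside shares over all genes of 39.2% higher and 42.7% lower in D1-IPs against inputs, and 37.8% higher and 44.9% lower in D2. All 46 further astrocyte genes were lower in the IPs of both lines (medians -2.94 in D1 and -3.07 in D2). By the mean of both lines the most depleted was the zinc transporter Slc39a12 (-3.87 and -5.13), then Cldn10, a claudin (-3.83 and -4.71). Among the least was Mt3, a metallothionein (-0.49 and -0.66). Of 12 reactive-state genes, 8 were tested and all 8 were lower in either line.

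Of 13 transporters and enzymes of the glutamate-glutamine cycle beside the members, 6 were higher and 4 lower in D1-IPs, and 3 were higher and 7 lower in D2-IPs, with the other 3 not called in either line. The glutamine transporters Slc38a5 (-3.87 and -4.17) and Slc38a3 (-3.83 and -3.62) were depleted as the astrocyte transporters were. The aspartate aminotransferases Got1 (1.05 and 0.84) and Got2 (0.79 and 0.68) were higher in the IPs. Of 11 further gap junction genes, 7 were lower in D1 and 8 in D2, led by Gjb2 (-4.06 and -4.23) and Gjb1 (-3.30 and -3.83), while the pannexin Panx1 was higher (0.90 and 0.94). Of 10 endfoot and ion channel genes 9 were lower in either line, led by Abcc9 (-4.51 and -4.88) and Mlc1 (-3.46 and -4.21), and the dystroglycan gene Dag1 was higher (0.23 and 0.33).

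Around Agt, 9 of 11 genes of the renin-angiotensin system were tested. In D1-IPs 7 were lower and 2 higher, and in D2-IPs 5 were lower and 2 higher. The peptidase Enpep (-4.83 and -5.00) was among the most depleted, and Atp6ap2, the prorenin receptor, was higher (1.10 and 0.88). Mas1, a receptor for angiotensin 1-7, was higher in D1-IPs against inputs (0.80), was at -0.41 in D2 (adjusted p = 0.0643), and was higher in D1-IPs than in D2-IPs (0.90). Among 10 folate enzymes tested beside Aldh1l1, 4 were higher and 5 lower in either line, close to the shares over all genes, from Aldh1l2 (-1.92 and -2.27) to Mthfd1l (0.87 and 0.59). Of the S100 genes other than S100b, 7 were tested and all were lower in both lines, with S100a11 (-4.22 and -4.11) and S100a10 (-0.69 and -0.73) at the ends of the range by the mean of the lines.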

How the data were processed

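Bulk RNA was sequenced from NAc inputs and HA immunoprecipitates. The deposited values are raw counts per gene symbol. Per the labels and the study's methods, the authors made a stranded poly-A library from each pool, trimmed reads with cutadapt, aligned them to mm10 with STAR and counted with HTSeq. Versions, annotation and strand setting are not given in the sources used here. Columns with no matching sample, 2 in all, were not used. The tables also list rows that name no gene, 5 in each, which were left out and held 18.02% to 40.0% of the counts of a library. The study scaled counts by RLE and tested with DESeq2.

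Counts were tested with edgeR 4.0.16 in R 4.3.3 (TMM, filterByExpr with a count minimum of 10, quasi-likelihood test, Benjamini-Hochberg over all genes, two-sided). Stress comparisons of inputs had line as a term, and the other fits had a mean per group. CPM are on TMM-scaled library sizes, and log2 CPM use a prior count of 2. Correlations used two-sided permutation tests with 100000 resamples, or exact ones within 9 or fewer libraries (scipy 1.17.1). Per-kilobase levels used summed exon lengths of GENCODE vM21, and promoters came from RefSeq. The smallest chi-square per gene between 76 pairs of replicates was 3.60, so none was a duplicate. The fit was tested on simulated counts. The members, the gene lists and the tests were chosen with earlier results of these data known. All 10 members were named in every comparison. From each other list, the 2 genes with the highest and the 2 with the lowest mean log2 difference of IP against input were eligible, with the 5 genes most like the members and Sirt1. Some eligible genes are not reported here. Other genes were named after their values were seen. Relations over IPs, the split of the D1-IPs and comparisons within stress groups were added after seeing the data. IPs and inputs of the same name came from 1 pool per the labels, but did not deviate together. A correlation over 0.1 was found in 3 of 18 such pairs and in 15 of 66 pairs of other numbers. Between stress groups of a line, it was found in 8 of 18 same-numbered input pairs, against 6 of 36 others. For IPs it was 10 of 27 against 18 of 104. Whether numbers mark variation shared between stress groups was not tested. The main fits have no block, and a replicate block was among the alternative settings.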

Additional observations from a re-analysis of the deposited data

Results flagged for a closer look

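For 5 members the depletion in IPs differed between the lines by a test of that difference. D1 minus D2, it was 3.15 for Agt, 0.74 for Gja1, 0.55 for Aldh1l1, 0.50 for S100b and 0.41 for Slc1a2 on the log2 scale. Adjusted p were 9.52e-05, 0.000521, 0.00513, 0.00539 and 0.0121 by edgeR. Markers of oligodendrocytes, microglia, endothelium and neurons also differed between the IPs of the lines, and their part was not tested. The D1-IPs also fell into a lower and an upper set on the mean of the members, and the part of that split was not tested.

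A single library stood away from the rest of its group in 3 of 70 combinations of group and member, where chance alone gives about 1 in 20. Aldh1l1 was at 8.08 CPM in D1 Con IP 4, with the other 3 at 5.14 to 5.42. Slc1a2 was at 419 CPM in D1 Res IP 2, with the other 3 between 342 and 343. Gja1 was at 8.62 CPM in D2 Res IP 5, with the other 4 between 6.30 and 6.83.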

How the results depend on the processing

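Over 17 comparisons and 560 alternative settings, 5510 values of members were recomputed, of which 160 changed sign, none of them called in either fit, 22 lost a call and 26 gained one. The depletion of all 10 members in D1-IPs and in D2-IPs kept its count. With an unadjusted p under 0.05, the counts of members were 2 and 1 in inputs (Sus and Res against Con), 1 and 1 in D1-IPs (Sus against Con and against Res) and 1 and 1 in D2-IPs (Sus and Res against Con). Genes passing then numbered 663, 478 and 821 in inputs (Sus against Con, Res against Con, Sus against Res), 759, 300 and 601 in D1-IPs and 523, 430 and 236 in D2-IPs. With DESeq2, 3, 1 and 14 genes were called in inputs for Sus against Con, Res against Con and D1 against D2 line (edgeR 0, 0 and 3). D1-IP Res against Con had 1 gene called, and 0 with all genes of at least 1 count, with a replicate block, with only the libraries compared, and 0 to 1 without 1 library. D1-IP against D2-IP had 1, 3 and 4 members and 1990, 2487 and 2497 genes called within Con, Res and Sus, which have fewer samples. For the Sirt1-KO label, 0 members and 226 genes were called. With all genes of at least 1 count these were 1 and 378, with DESeq2 3 and 741, and with the replicate block 2 and 1618 (Slc1a2 0.57, Agt -1.76). Without 1 library they were 0 to 2 and 41 to 1020, with the highest counts without Sirt1-KO 5. Only 3 pairs of these libraries share a number, too few to tell whether the numbers pair them, and the cause was not tested. The difference in depletion between lines called 5 to 7 members without 1 library. Depth limits Agt in D2-IPs most, with as few as 2 counts.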

Other observations

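Other members had likenesses of their own over the 18 inputs, given as descriptions with genes named after their values were seen. The genes most like Slc1a2 were C1qtnf4 (r = 0.919), Cdc25c (r = 0.911), Lmo3 (r = 0.908), Dio2 (r = 0.907) and Gldc (r = 0.906), of which Dio2, the deiodinase that activates thyroid hormone, and Gldc, a glycine-cleaving enzyme, were in the list of further astrocyte genes. The genes most like Gfap were Slc47a1 (r = 0.810), Slc22a6 (r = 0.788), Gal3st1 (r = 0.779), Gjb2 (r = 0.778) and Slc13a4 (r = 0.778), none of them in that list, and Slc13a4, a sulfate transporter, ranged from -0.74 to 3.57 in log2 CPM. The gene most like Aldh1l1 was Slc39a12 (r = 0.899) and that most like Glul was Prdx6 (r = 0.891), an antioxidant enzyme.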
